A study of Mus musculus with 3 samples.

Results

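The 8 genes *Fas*, *Casp8*, *Casp9*, *Cflar*, *Apaf1*, *Xiap*, *Birc2* and *Birc3* were taken by symbol from the 32285 genes counted in the libraries, and all 8 were detected in each library. Splenic B cells were collected 10 days after 1 immunization with SRBCs (sheep red blood cells), an antigen that drives germinal center (GC) reactions, and single-cell RNA was counted by unique molecular identifiers (UMIs) in 1 library per genotype. In 3′RR-*BCL2* mice, a randomly integrated transgene carries human *BCL2* with its P1/P2 promoter region under the core 3′ regulatory region of the IgH locus. In Igκ-*BCL2* mice, the same cassette takes the place of the Jκ region, just before the Eκ enhancer. WT mice carry neither, and the animals share a mixed B6/129 background and the immunization. Ages, and whether a library held 1 or several animals, are not given in the sources used here, and human *BCL2* is not analysed here.

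These genes belong to both arms of apoptosis. Fas is a death receptor of the cell surface that, once bound by Fas ligand, recruits the adaptor FADD and activates caspase-8, while c-FLIP, the product of *Cflar*, competes with caspase-8 for this complex. In the mitochondrial arm, which BCL2 restrains, cytochrome c released into the cytosol binds Apaf1, which then activates caspase-9. The inhibitor of apoptosis (IAP) proteins act further down or beside these steps: XIAP inhibits caspases directly, and cIAP1 and cIAP2, the products of *Birc2* and *Birc3*, are ubiquitin ligases of TNF receptor complexes that also hold back the alternative NF-κB pathway. GC B cells are known for surface Fas and for a high rate of cell death.

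In the annotation of GRCm38 (GENCODE M21), *Fas* lies on chromosome 19 (34290666 to 34327772, plus strand), *Casp9* on chromosome 4 (141793612 to 141815976, plus strand), *Apaf1* on chromosome 10 (90989311 to 91082770, minus strand) and *Xiap* on chromosome X (42059679 to 42109656, plus strand). The other genes form neighbouring pairs. *Cflar* (58711508 to 58758884) and *Casp8* (58795374 to 58847503) lie on the plus strand of chromosome 1, 36489 bases apart with 1 annotated gene between them. The paralogs *Birc2* (7818227 to 7837064) and *Birc3* (7848699 to 7873186) lie on the minus strand of chromosome 9, 11634 bases apart with none between them. Their transcripts share an exact stretch of up to 114 bases, but of at most 13 bases within the last 500 bases, the part a 3′ library reads. *Fas* and *Casp8* each overlap 1 noncoding or unclassified gene on the same strand, with which reads could be shared, while the genes that overlap *Casp9* (*Cela2a* and *Ctrc*) and *Apaf1* lie on the opposite strand. The regions before the starts of 3 genes are shown because *Fas* rose in GC cells and because *Birc2* and *Birc3* parted there. They hold the 250 bases before the outermost start of the gene, 5′ to 3′ on its strand, from RefSeq on GRCm38.p6, with CG dinucleotides in capitals.
Fas, chr19:34290409-34290658, plus strand: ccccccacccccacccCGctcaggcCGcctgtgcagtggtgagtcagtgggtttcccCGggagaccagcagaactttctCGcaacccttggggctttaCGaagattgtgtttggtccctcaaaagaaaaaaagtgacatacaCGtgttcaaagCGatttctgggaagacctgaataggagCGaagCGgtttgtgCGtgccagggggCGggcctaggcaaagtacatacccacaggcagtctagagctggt
Birc2, chr9:7837058-7837307, minus strand: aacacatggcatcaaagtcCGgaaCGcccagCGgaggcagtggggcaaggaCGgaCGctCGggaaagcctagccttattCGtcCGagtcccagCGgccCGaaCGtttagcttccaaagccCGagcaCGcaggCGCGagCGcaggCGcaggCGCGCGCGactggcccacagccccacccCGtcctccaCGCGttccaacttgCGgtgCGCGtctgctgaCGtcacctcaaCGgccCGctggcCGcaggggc
Birc3, chr9:7873171-7873420, minus strand: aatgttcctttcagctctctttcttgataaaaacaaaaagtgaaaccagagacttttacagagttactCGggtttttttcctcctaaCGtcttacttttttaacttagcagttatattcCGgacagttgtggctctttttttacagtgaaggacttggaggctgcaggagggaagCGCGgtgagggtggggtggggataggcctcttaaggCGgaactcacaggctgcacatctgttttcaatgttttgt
The region of *Birc2* held 31 CG dinucleotides, a number reached by 5.19% of 32851 RefSeq regions of the same length, against 11 for *Fas* (reached by 35.6%) and 6 for *Birc3* (reached by 50.4%). The NF-κB consensus, searched on both strands, was found in 7.25% of all regions and in none of the 11 regions of the 8 genes. This says only that these letters are not in these windows.

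The libraries held 7579 barcodes for 3′RR-*BCL2*, 7034 for Igκ-*BCL2* and 11269 for WT, with 45539172, 37433924 and 62777659 UMIs, and 15 to 24 barcode sequences were shared between each pair. After filters, 6561, 6243 and 9932 cells remained. By the methods of the study, B cells were sorted magnetically for each genotype, but the labels state a sort for WT alone and give whole tissue as the source of either *BCL2* library. T cell markers summed to 3.30 to 6.60 CPM (UMIs per 1000000 UMIs) in resting-like cells of the 3 libraries, with *Cd8a* at 0 in each, and myeloid markers to 4.12 to 6.48. Cells with 2 or more UMIs of *Cd3* or C1q genes had been removed before, so that these values cannot tell how a library was sorted. In 3′RR-*BCL2*, Igκ-*BCL2* and WT, 14, 16 and 18 cells met this limit for *Cd3* genes and 5, 0 and 6 for C1q genes. *Xist* was high in 3′RR-*BCL2* and near 0 elsewhere, and *Ddx3y* the reverse. For 3′RR-*BCL2*, genotype thus cannot be told apart from sex, while Igκ-*BCL2* and WT were alike in both genes. Heat shock genes also differed, at 6564, 9219 and 2651 CPM in resting-like cells of 3′RR-*BCL2*, Igκ-*BCL2* and WT. Clusters were made without the 8 genes and without 50 other genes of the pathway, and were named from marker lists. They gave resting-like cells, which held all 12 resting markers at a higher level than the rest, and pre-centroblast-like, IFN-activated-like, marginal zone (MZ)-like, transitional-like and GC-like cells. MZ-like cells were led by *Lyz2*, *S100a4* and *Jchain*, held all 14 MZ markers at a higher level, and also 8 of 9 B-1 and memory markers and 4 of 4 myeloid markers detected, whose whole list summed to 143, 60.2 and 565 CPM in MZ-like cells of 3′RR-*BCL2*, Igκ-*BCL2* and WT. A cluster led by *Gm42418* stayed unnamed. For 2 further classes, each cell was thinned at random to 2000 UMIs of genes other than immunoglobulin genes. GC-like cells that then held UMIs of at least 3 of 12 proliferation markers were called dividing. Any cell that then held at least 5 of 13 plasma cell markers was called a plasma-marker cell.

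Each stage was then compared with resting-like cells. Levels are given as CPM, the UMIs of a gene per 1000000 UMIs of a stage. All intervals of levels, ratios and shares are exact at 95% and hold counting error alone. The test was the edgeR quasi-likelihood test on sums per library and stage, with library as a term and adjustment over all 10525 genes tested. Its replicates are 3 libraries of 3 genotypes, so that its spread also holds genotype differences, and the stages were made from other genes of the same cells.

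*Fas* was the gene of this group that marked the GC. In non-dividing GC-like cells it reached 117 CPM in 3′RR-*BCL2* (493 UMIs in 555 cells), 119 in Igκ-*BCL2* (286 UMIs in 312 cells) and 84.2 in WT (78 UMIs in 96 cells), against 16.1, 15.2 and 5.83 in resting-like cells of the same libraries. In dividing GC-like cells the levels were 102, 104 and 73.2. The lowest GC-like library thus stood above the highest resting-like one in both classes. The change was 8.44-fold in non-dividing cells (log2 3.08 ± 0.17 SE, adjusted p = 1.2e-17, edgeR) and 7.15-fold in dividing cells (log2 2.84 ± 0.26, adjusted p = 1.3e-11, edgeR), and it was called under all 10 alternatives. Over stages, non-dividing (107 ± 19.5, SD, n = 3) and dividing (92.9 ± 17.1) GC-like cells overlapped, and both stood above plasma-marker cells in every library (46.9 ± 26.01). The plasma-marker cells also included cells outside the filters. Without those, their *Fas* level in 3′RR-*BCL2* was above both GC-like levels, so that this order depended on the limits. The means of the other 6 stages lay between 9.02 and 15.3 with overlapping ranges.

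**Figure D1:**
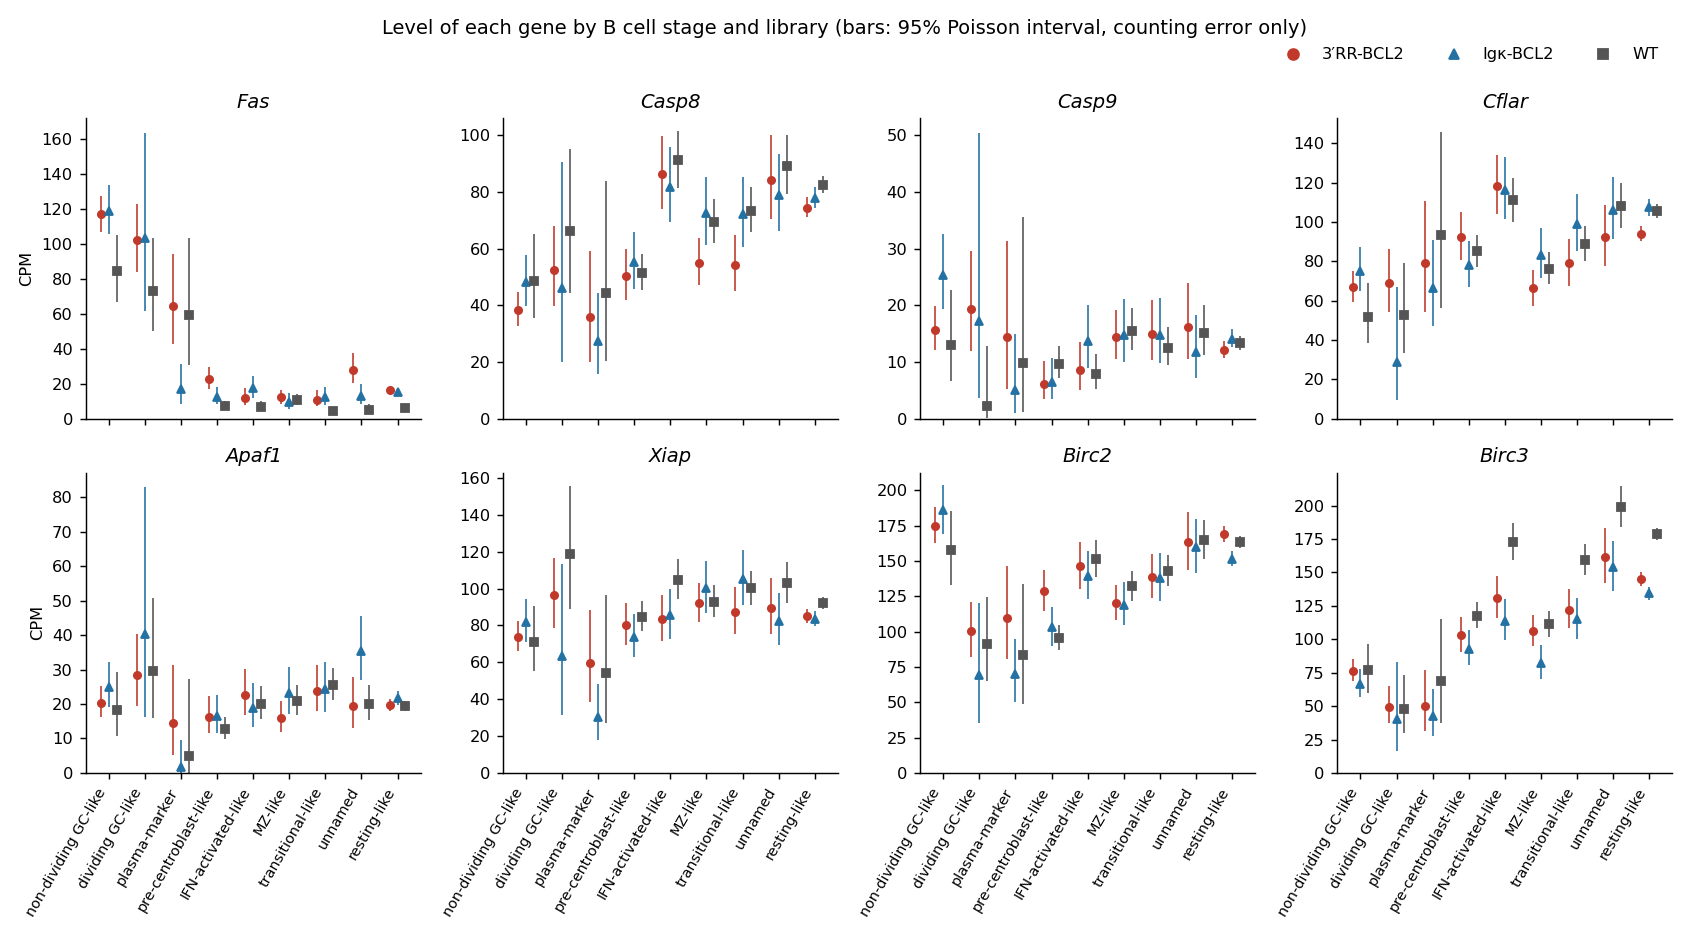
CPM of each gene (vertical axis, from 0) in 9 B cell stages (horizontal axis) of the 3′RR-*BCL2* (circles), Igκ-*BCL2* (triangles) and WT (squares) libraries, with Poisson intervals. *Fas* reaches 73.2 to 119 in GC-like cells and stays at or under 27.9 in the stages right of the plasma-marker cells, while *Birc3* lies at 40.3 to 76.7 in GC-like cells and at 134 to 179 in resting-like cells.

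Cell by cell, *Fas* RNA was sparse even in the GC. After thinning to 2000 UMIs per cell, at least 1 *Fas* UMI was found in non-dividing GC-like cells of 3′RR-*BCL2* in 19.8% of 555 (16.6% to 23.4%), of Igκ-*BCL2* in 19.2% of 312 (15.0% to 24.05%) and of WT in 15.6% of 96 (9.02% to 24.5%). The same share in resting-like cells was 2.63%, 2.38% and 1.16%, and 58, 67 and 95 cells of fewer UMIs were left out. Without thinning, the shares were 49.7%, 53.5% and 46.9% in non-dividing GC-like cells and 6.83%, 6.12% and 2.82% in resting-like cells, at median depths of 7021, 7468 and 9477 UMIs against 4978, 4668 and 4775. The GC-like shares thus lay above those of resting-like cells by both counts and in each library.

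Among the genes of this group, *Casp8* and *Cflar* of the death receptor arm were lower in GC-like cells. *Casp8* was at 38.4, 48.3 and 48.6 CPM in non-dividing GC-like cells of 3′RR-*BCL2*, Igκ-*BCL2* and WT, against 74.5, 78.0 and 82.6 in resting-like cells. It fell 1.81-fold there (log2 -0.85 ± 0.10 SE, adjusted p = 4.9e-09, edgeR) and 1.42-fold in dividing cells (log2 -0.50 ± 0.15, adjusted p = 0.0062, edgeR), a call that was lost without the 3′RR-*BCL2* library (adjusted p = 0.17). *Cflar* was at 66.8, 75.3 and 51.8 in non-dividing and 68.9, 28.8 and 52.6 in dividing GC-like cells, where the Igκ-*BCL2* value rests on 5 UMIs, against 94.0, 107 and 105 in resting-like cells. The groups did not overlap, and *Cflar* fell 1.55-fold in non-dividing cells (log2 -0.63 ± 0.10, adjusted p = 3.0e-06, edgeR) and 1.73-fold in dividing cells (log2 -0.79 ± 0.16, adjusted p = 1.0e-04, edgeR). The receptor gene thus rose in the cells in which the genes of caspase-8 and c-FLIP fell. *Cflar* was highest in IFN-activated-like cells (115 ± 3.87 CPM, SD, n = 3), above every library of the next stage in order, but this was not called against resting-like cells (log2 0.22 ± 0.09, adjusted p = 0.47, edgeR).

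In GC-like cells, the genes of the mitochondrial arm, which had few UMIs, gave no call that held under every alternative. *Casp9* was at 15.6, 25.4 and 12.96 CPM in non-dividing GC-like cells, against 12.1, 14.1 and 13.3 in resting-like cells. WT thus did not share the direction, and the call (log2 0.46 ± 0.18 SE, adjusted p = 0.033, edgeR) was lost without Igκ-*BCL2* (log2 0.21, adjusted p = 0.50), without 3′RR-*BCL2* (log2 0.60, adjusted p = 0.076) and with DESeq2 (adjusted p = 0.071). In pre-centroblast-like cells, which are activated cells of a MYC program, *Casp9* was at 6.12, 6.38 and 9.65 and fell 1.57-fold (log2 -0.65 ± 0.20, adjusted p = 0.0080, edgeR), which was lost without 3′RR-*BCL2* (adjusted p = 0.070) and without Igκ-*BCL2* (adjusted p = 0.061). *Apaf1* did not pass the test in non-dividing GC-like cells (log2 0.06 ± 0.15, adjusted p = 0.79, edgeR). In dividing cells it was at 28.5, 40.3 and 29.7, against 19.6, 21.6 and 19.5 in resting-like cells, above it in each library. The difference missed the threshold (log2 0.57 ± 0.24, adjusted p = 0.056, edgeR) and passed it under 4 of 10 alternatives, with adjusted p between 0.026 and 0.048.

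The IAP genes parted from one another. *Birc3* was at 76.5, 66.6 and 76.7 CPM in non-dividing GC-like cells of 3′RR-*BCL2*, Igκ-*BCL2* and WT, and at 49.6, 40.3 and 48.0 in dividing ones, against 145, 134 and 179 in resting-like cells. The highest GC-like value was thus well under the lowest resting-like one. *Birc3* fell 2.07-fold in non-dividing cells (log2 -1.05 ± 0.08 SE, adjusted p = 5.8e-13, edgeR) and 3.30-fold in dividing cells (log2 -1.72 ± 0.14, adjusted p = 3.0e-13, edgeR), under all 10 alternatives. Its neighbour *Birc2* was at 175, 186 and 158 in non-dividing cells, against 169, 152 and 164 in resting-like cells, and did not pass the test (log2 0.08 ± 0.08, adjusted p = 0.44, edgeR). In dividing cells *Birc2* was at 100.2, 69.0 and 91.5, below every non-dividing and resting-like value, and fell 1.81-fold (log2 -0.85 ± 0.13, adjusted p = 1.1e-06, edgeR). *Xiap* passed the test in no stage. It was at 73.9, 81.9 and 71.3 in non-dividing GC-like cells, below 85.3, 83.7 and 92.1 in resting-like cells, with an adjusted p of 0.087 (log2 -0.20 ± 0.10, edgeR) and of 0.038 without Igκ-*BCL2*.

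Of the 8 genes, 5 were thus called in non-dividing GC-like cells (2 higher, 3 lower), where 48.2% of all genes tested were called, and 5 in dividing ones (1 higher, 4 lower), where 46.3% were. The median log2 fold change over the 8 was -0.07 and -0.18, beside -0.01 and -0.08 over all genes. These shares do not set the group apart from other genes. In plasma-marker cells 3 of 8 were called, beside 25.1% of all genes. These were only 30, 37 and 13 cells, and normalization factors of 0.62 to 0.85 raised their levels in the test. *Fas* was at 64.6 CPM in 3′RR-*BCL2* (27 UMIs), 17.0 in Igκ-*BCL2* (10 UMIs) and 59.0 in WT (12 UMIs), and was called higher than in resting-like cells (log2 2.21 ± 0.41 SE, adjusted p = 6.3e-05, edgeR). By CPM, the ratios to resting-like cells were 4.01 (2.61 to 5.93), 1.12 (0.53 to 2.08) and 10.1 (5.14 to 18.1). The interval of Igκ-*BCL2* thus holds 1. *Casp8* (log2 -0.68 ± 0.21, adjusted p = 0.013, edgeR) and *Birc3* (log2 -1.03 ± 0.16, adjusted p = 3.7e-06, edgeR) were lower, and the call of *Casp8* was lost without any one of the 3 libraries (adjusted p = 0.068 without WT, 0.071 without 3′RR-*BCL2* and 0.10 without Igκ-*BCL2*). Of the plasma-marker cells, 21 were in the GC-like cluster, and 23 lay outside the limits on genes, UMIs or ribosomal counts. With at least 6 markers *Fas* in Igκ-*BCL2* was at 6.37, and with at least 4 at 46.4, so that its level there moves with the limit. Within the limits on genes, UMIs and ribosomal counts, *Fas* in 3′RR-*BCL2* was at 122. *Apaf1* was called lower only without 3′RR-*BCL2* (log2 -2.43, adjusted p = 0.026).

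**Figure D2:**
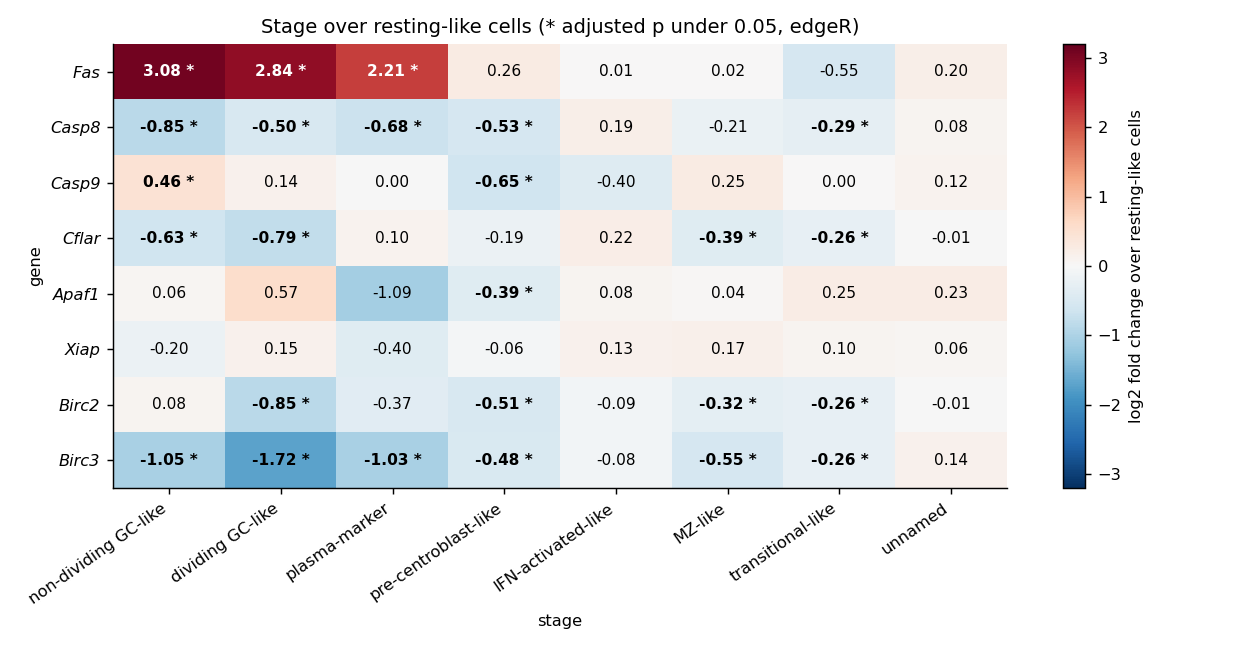
Log2 fold change of each gene (rows) in 8 stages (columns) over resting-like cells, from edgeR. Asterisks and bold type mark an adjusted p under 0.05, and red is higher and blue lower than in resting-like cells. *Fas* is at 3.08, 2.84 and 2.21 in the first 3 columns, *Birc3* is marked in 6 of 8 columns, and *Xiap* in none.

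In the remaining stages, every difference called among the 8 genes with the stages as defined above was a lower level. In pre-centroblast-like cells 5 of 8 genes were called, beside 48.8% of all genes, namely *Casp8*, *Casp9*, *Apaf1*, *Birc2* and *Birc3*, with log2 fold changes between -0.65 and -0.39. *Apaf1* (log2 -0.39 ± 0.16 SE, adjusted p = 0.037, edgeR) lost its call without WT (adjusted p = 0.41) and with stages from markers alone (adjusted p = 0.076). *Cflar*, not called there, was called lower with DESeq2 (adjusted p = 0.039), with DESeq2 size factors (adjusted p = 0.041) and without 3′RR-*BCL2* (adjusted p = 0.048). In MZ-like cells 3 of 8 were called, beside 21.4%, and were *Birc3* (log2 -0.55), *Cflar* (log2 -0.39) and *Birc2* (log2 -0.32), of which *Birc2* was lost without 3′RR-*BCL2* (adjusted p = 0.13) and both *Birc2* and *Cflar* with stages from markers alone (adjusted p = 0.32 and 0.31), while *Casp8* was called without Igκ-*BCL2* (adjusted p = 0.048). In transitional-like cells 4 of 8 were called, beside 20.2%. *Casp8*, *Cflar*, *Birc2* and *Birc3* were lower there by 0.26 to 0.29 on the log2 scale, and each was lost without WT (adjusted p = 0.077 to 0.31) and without 3′RR-*BCL2* (adjusted p = 0.14 to 0.28), as was *Birc3* without Igκ-*BCL2* (adjusted p = 0.054). With stages from markers alone, none of these 4 genes was called there, and *Casp8* was higher (log2 0.080, adjusted p = 0.92, edgeR). *Cflar* also lost its call there at resolution 0.4 and without cells of high doublet scores. No gene was called in IFN-activated-like cells, beside 2.66% of all genes, or in the unnamed cluster, beside 2.02%, by edgeR or DESeq2. With stages from markers alone, *Casp8* was called higher in IFN-activated-like cells (log2 0.39, adjusted p = 0.046, edgeR). *Casp8* and *Cflar* had an unadjusted p under 0.05 in IFN-activated-like cells (0.031 and 0.022, edgeR), and no gene did in the unnamed cluster. *Birc3* was called lower in 6 of 8 stages and *Casp8* in 5 of 8.

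Over the 27 sums of a library and a stage, the genes most like each of the 8 were found by Pearson correlation of log2(CPM + 5) among 10785 genes, as a description only, since sums share libraries and depth. For *Fas* they included *Gxylt2* (0.96) and *Nuggc* (0.96), of which *Nuggc* was on the list of GC markers. For *Birc3* they were *Clec2i*, *Satb1* and *Stk17b* (0.95 each), of which *Satb1* was on the list of resting markers. For *Birc2* they were *Snx29* (0.97), *Baz2b* (0.90) and *Mgrn1* (0.89), and for *Cflar* *Fam160b1* (0.93), *Lrrc8a* (0.87) and *Cbx7* (0.86). *Casp8* was most like *Rps6ka5* (0.91), *Samd9l* (0.90) and *Sptbn1* (0.90), *Xiap* like *Rsrc1* (0.90), *Ttc7* (0.90) and *Bin1* (0.89), and *Apaf1* like *Tmem265* (0.92), *Anp32a* (0.91) and *Cramp1l* (0.90). *Casp9*, the least abundant, reached only 0.79 with *Pik3c2b* and *Dnmbp* and 0.77 with *Slain1*. Among the 8, the highest correlation was between *Casp8* and *Birc3* (0.79) and the lowest between *Fas* and *Birc3* (-0.76).

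Of 50 other genes of the pathway, 43 passed the filter on low counts. *Fasl*, the ligand of Fas, did not, and no *Fasl* UMI was found in GC-like cells. In non-dividing GC-like cells 14 were higher and 11 lower (58.1%, beside 48.2% of all genes), in dividing ones 9 and 9 (41.9%, beside 46.3%), and in plasma-marker cells 5 and 5 (23.3%, beside 25.1%). Among ligands, *Lta*, which encodes lymphotoxin alpha, was at 80.8, 48.3 and 50.8 CPM in non-dividing GC-like cells of 3′RR-*BCL2*, Igκ-*BCL2* and WT, against 25.4, 17.1 and 30.5 in resting-like cells (log2 1.40, adjusted p = 2.9e-11, edgeR). *Tnf* was higher as well, at 12.1, 10.4 and 11.9 against 3.94, 2.98 and 1.85 (log2 1.90, adjusted p = 3.2e-06, edgeR). *Tnfsf10*, which encodes the death ligand TRAIL, was lower, at 0.237, 0 and 0 in non-dividing GC-like cells, from 1 UMI in all, against 2.68, 3.80 and 4.12 (adjusted p = 1.6e-05, edgeR).

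Adaptor and kinase genes also changed. *Ripk3*, a kinase of necroptosis, was higher in non-dividing (log2 0.60) and dividing (log2 1.32) GC-like cells. *Traf1*, an adaptor that binds TRAF2 and the cIAPs, was higher in non-dividing GC-like cells (log2 0.98) and plasma-marker cells (log2 0.90). *Traf3* (log2 -1.12), *Ltb*, which encodes lymphotoxin beta (log2 -1.11), and the kinase gene *Ripk1* (log2 -1.17) were lower in dividing cells.

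Among receptors in non-dividing GC-like cells, *Tnfrsf21* (log2 1.38) and the TRAIL receptor gene *Tnfrsf10b* (log2 1.01) were higher and *Tnfrsf1b*, a TNF receptor gene, lower (log2 -0.80), all at under 12 CPM. *Xaf1*, which encodes a partner of XIAP induced by interferon, was lower there (log2 -0.79) and higher in IFN-activated-like cells (139, 135 and 129 CPM, against 25.8, 23.9 and 20.4 in resting-like cells, log2 2.58, adjusted p = 9.0e-23, edgeR). *Birc5*, which encodes survivin, a BIR protein of chromosome segregation, was at 308, 305 and 222 in dividing GC-like cells, against 1.04, 0.824 and 0.569 in resting-like cells (log2 8.33, adjusted p = 1.8e-21, edgeR). It was not among the markers that defined division, but as a gene of chromosome segregation it is no independent support for that class. In dividing cells *Tnfrsf1b* (3, 0 and 2 UMIs), *Naip5* (1, 0 and 1) and *Gsdmd* (14, 0 and 8) were also lower, and in plasma-marker cells *Gsdmd*, *Ltb*, *Cd40*, *Rock1* and *Parp1* were lower and *Birc5*, *Tnfsf10* and *Cycs*, which encodes cytochrome c, higher.

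**Figure D3:**
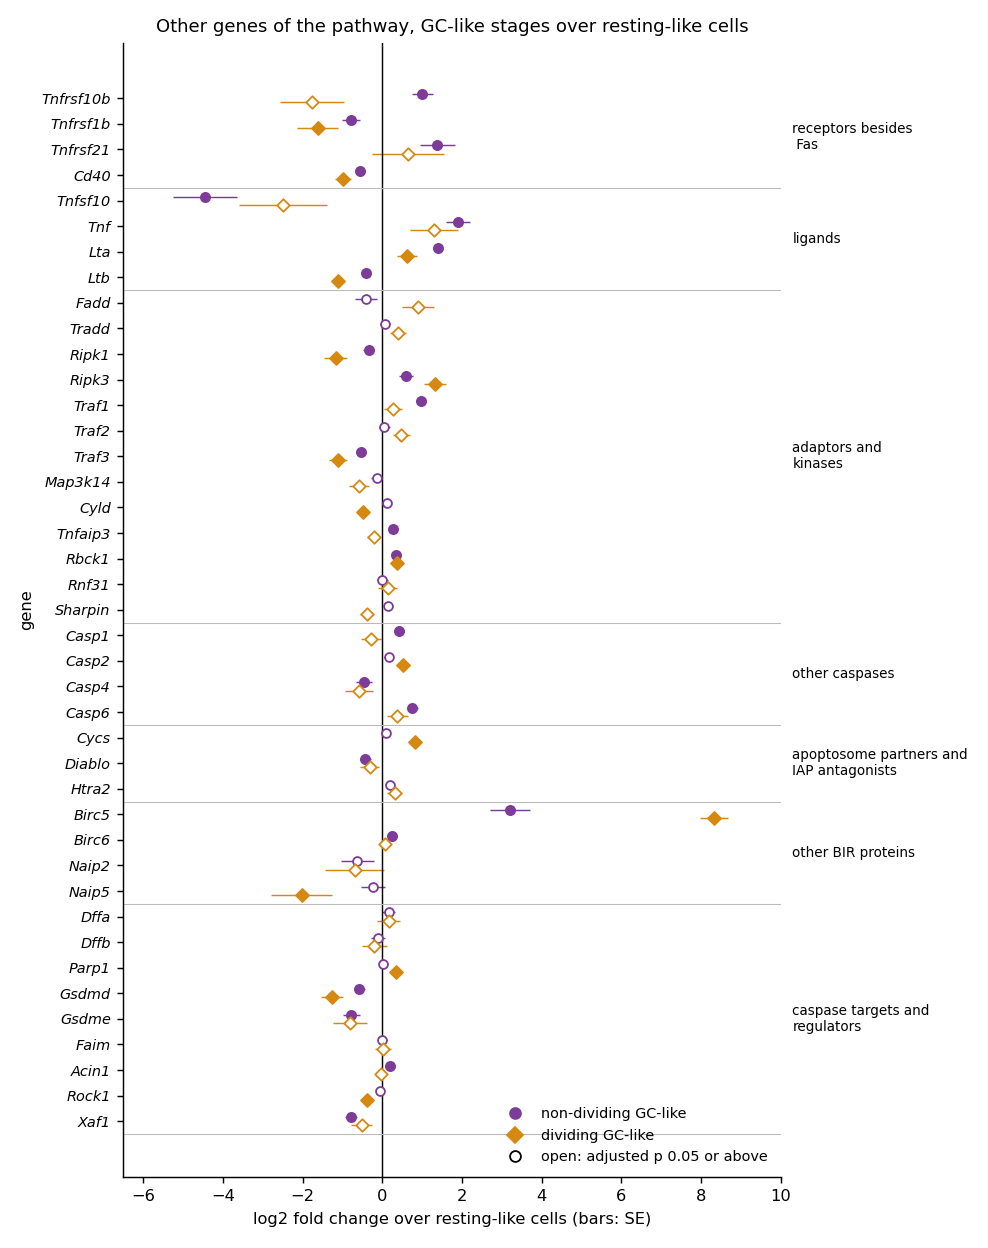
Log2 fold change over resting-like cells (horizontal axis, bars are SE) of the other pathway genes tested and reported (vertical axis, grouped by role) in non-dividing (circles) and dividing (diamonds) GC-like cells, with open symbols for an adjusted p of 0.05 or above. *Birc5* in dividing cells is farthest to the right at 8.33 and *Tnfsf10* in non-dividing cells farthest to the left at -4.45, a fitted value that rests on 1 UMI.

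Between genotypes there was 1 library each, so that no test was made, and ratios are given with counting intervals. A gene was counted as past the fold when it was at least 1.5 times higher or lower with at least 20 UMIs in either library. In resting-like cells 1 of 8 genes was past it for 3′RR-*BCL2* over WT, beside 8.85% of all genes, and 1 of 8 for Igκ-*BCL2* over WT, beside 12.9%. It was *Fas* both times, with 372 UMIs (16.1 CPM) in 3′RR-*BCL2*, 332 (15.2) in Igκ-*BCL2* and 205 (5.83) in WT, ratios of 2.76 (2.32 to 3.29) and 2.61 (2.18 to 3.12). The next farthest was *Birc3*, at 145, 134 and 179 CPM, ratios of 0.81 (0.78 to 0.85) and 0.75 (0.72 to 0.79), where the median gene was at 0.96 and 1.02. The other 6 genes were at 0.89 to 1.11. The differences in *Fas* and *Birc3* were not particular to resting-like cells. Over WT, *Fas* ratios were 2.62 and 2.93 in transitional-like, 3.10 and 1.70 in pre-centroblast-like and 1.82 and 2.66 in IFN-activated-like cells. They were 5.41 and 2.51 in the unnamed cluster (17 UMIs in WT), but 1.15 and 0.89 in MZ-like cells. Those of *Birc3* were 0.77 and 0.72 in transitional-like, 0.76 and 0.66 in IFN-activated-like and 0.95 and 0.74 in MZ-like cells. *Xiap*, which is X-linked, was at 85.3, 83.7 and 92.1, with ratios of 0.93 (0.88 to 0.98) in the female and 0.91 (0.86 to 0.96) in the male *BCL2* library. Both comparisons share the WT library, so that a low or high value there moves both ratios.

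**Figure D4:**
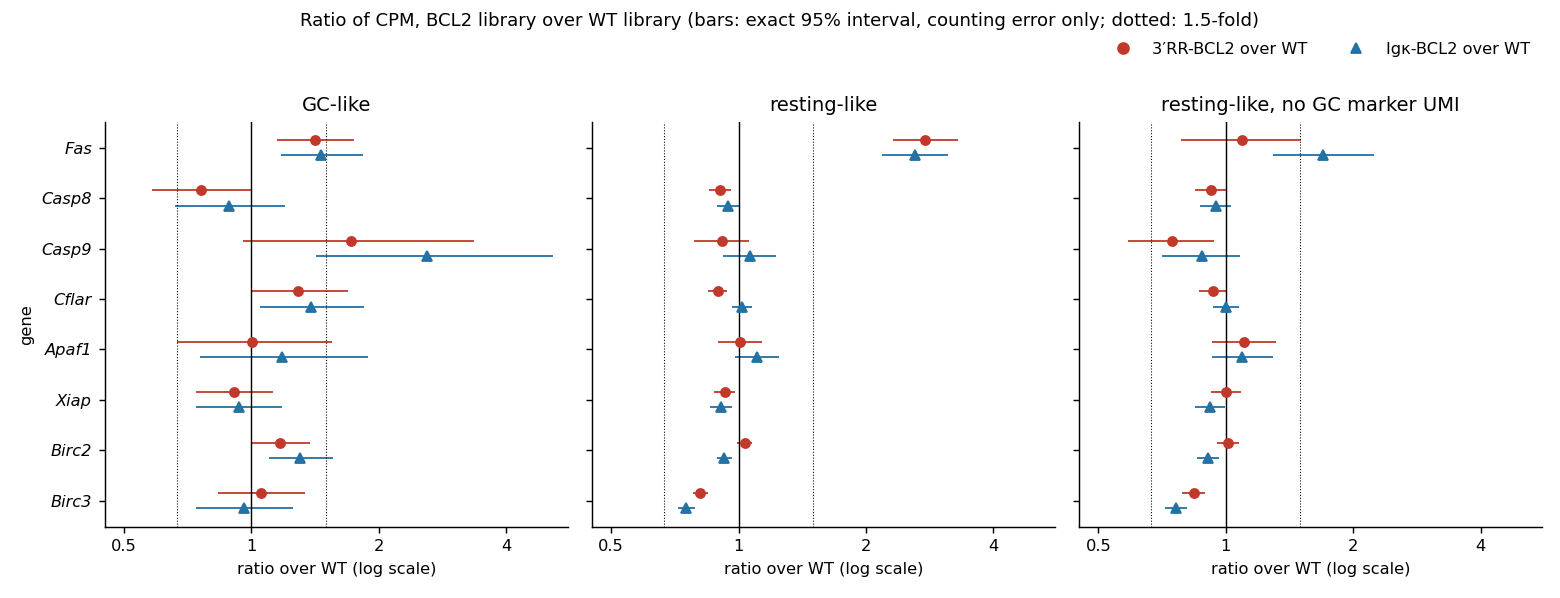
Ratio of CPM in the 3′RR-*BCL2* (circles) and Igκ-*BCL2* (triangles) library over the WT library (horizontal axis, log scale) for each gene in GC-like cells, in resting-like cells and in resting-like cells with no UMI of a GC marker, with exact intervals and dotted lines at 1.5-fold. *Fas* lies at 2.76 and 2.61 in resting-like cells and at 1.09 and 1.70 in those without a GC marker UMI, while *Birc3* stays between 0.75 and 0.84 in both panels of resting-like cells.

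In resting-like cells of the *BCL2* libraries, GC markers were higher beside *Fas*. Of 14 GC markers, 14 were higher in resting-like cells of 3′RR-*BCL2* and 13 in those of Igκ-*BCL2* than in WT. The summed level of the markers was 233, 190 and 112 CPM. This count had no limit on size, and the share of all genes higher in this way was not counted. The median ratio over WT of all genes was 0.96 and 1.02. Some markers differed little, such as *Hpse* at 20.9 CPM in 3′RR-*BCL2* and 19.5 in WT. *Nuggc*, for one, was at 11.7, 6.50 and 0.569. As a share of the GC-like level of the same library, the resting-like level of *Fas* was 14.1%, 12.9% and 7.23%, and the median over the 14 markers 6.56%, 4.43% and 1.32%. *Fas* was thus higher in resting-like cells relative to the GC than the median marker was in each library. The resting-like cells were then divided by GC markers. This division was chosen after the values above were seen, so that it describes the same pattern and is no separate support for it. The markers behind it also differed, since *Bcl6*, *Neil1* and *Hpse* (44.8, 30.7 and 19.5 CPM) made up most of the marker level in WT. In cells with UMIs of at least 2 markers (837 cells or 20.1% for 3′RR-*BCL2*, 630 or 14.8% for Igκ-*BCL2* and 529 or 8.06% for WT), *Fas* was at 40.8 (35.8 to 46.3), 38.2 (32.5 to 44.6) and 5.70 (3.53 to 8.71) CPM. In cells with none it was at 6.18 (4.73 to 7.94), 9.64 (7.89 to 11.7) and 5.67 (4.67 to 6.83), at median depths of 4602, 4325 and 4539 UMIs.

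Without a GC marker UMI, the ratio over WT was thus 1.09 (0.784 to 1.503) for 3′RR-*BCL2*, whose interval holds 1, and 1.70 (1.29 to 2.24) for Igκ-*BCL2*. The low *Birc3* remained in these cells, with ratios of 0.84 (0.79 to 0.89) and 0.76 (0.72 to 0.81). *Birc3* was at 135, 124 and 178 CPM in cells with at least 2 markers, and at 151, 137 and 180 in those with none. The part of heat shock genes in these ratios was not tested.

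**Figure D5:**
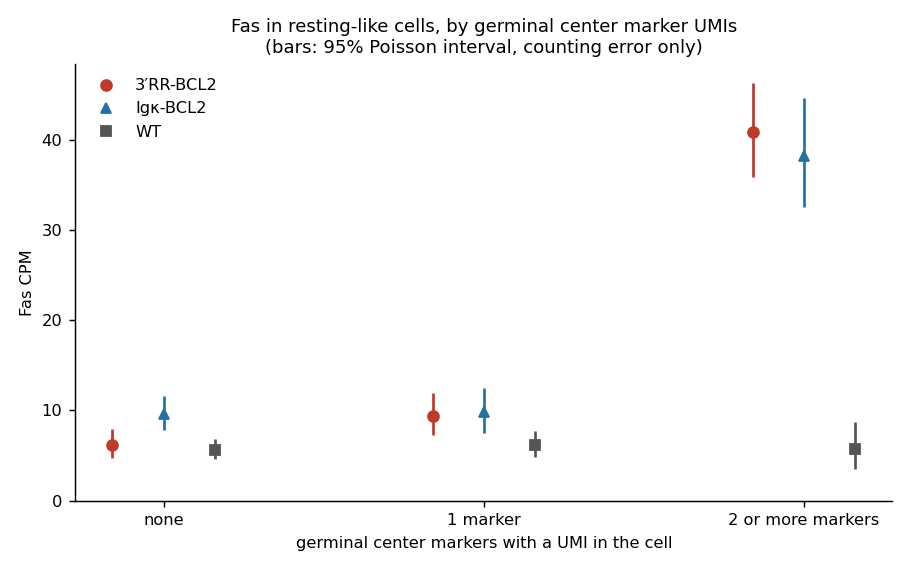
*Fas* CPM (vertical axis, from 0) in resting-like cells with UMIs of 0, 1, or at least 2 of the 14 GC markers (horizontal axis), in the 3′RR-*BCL2* (circles), Igκ-*BCL2* (triangles) and WT (squares) libraries, with Poisson intervals. The 3 WT classes sit between 5.67 and 6.13, while both *BCL2* libraries reach 38.2 to 40.8 in cells with at least 2 markers.

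Within GC-like cells, *Fas* was closer between genotypes, at 114 CPM in 3′RR-*BCL2*, 118 in Igκ-*BCL2* and 80.7 in WT, ratios of 1.41 (1.15 to 1.74) and 1.46 (1.17 to 1.83). With stages from markers alone, both ratios were nearer to 1 (log2 0.00 and 0.11). One of 8 genes was past the fold in each comparison, beside 18.7% of all genes for 3′RR-*BCL2* and 25.2% for Igκ-*BCL2*, and it was *Casp9*. It was at 16.4, 24.8 and 9.53, from 87, 64 and 13 UMIs, and the interval holds 1 for 3′RR-*BCL2* (1.72, 0.95 to 3.36) but not for Igκ-*BCL2* (2.60, 1.42 to 5.15). *Cflar* was at 67.2, 72.2 and 52.1 (ratios of 1.29, 0.999 to 1.69, and 1.39, 1.05 to 1.85) and *Birc2* at 159.5, 178 and 136 (1.17, 0.997 to 1.38, and 1.31, 1.10 to 1.56). *Birc3* was at 71.0, 64.8 and 67.5, with ratios of 1.05 (0.84 to 1.34) and 0.96 (0.74 to 1.25). Both intervals hold 1, but both also overlap those of resting-like cells (0.78 to 0.85 and 0.72 to 0.79). They thus do not tell the stages apart. *Casp8*, *Apaf1* and *Xiap* had intervals that hold 1 in both comparisons. The mix of GC-like cells differed, with 109 of 664 dividing in 3′RR-*BCL2*, 20 of 332 in Igκ-*BCL2* and 45 of 141 in WT. Within non-dividing cells, the ratios of *Casp9* were 1.21 (0.65 to 2.45) for 3′RR-*BCL2*, not past the fold, and 1.96 (1.04 to 3.996) for Igκ-*BCL2*. Those of *Birc2* were 1.11 (0.93 to 1.33) and 1.18 (0.98 to 1.43), with intervals that hold 1, and those of *Fas* 1.39 (1.09 to 1.78) and 1.41 (1.10 to 1.84).

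GC-like cells were 10.2% of the cells in 3′RR-*BCL2*, 5.32% in Igκ-*BCL2* and 1.42% in WT, and *Fas* over all cells was at 29.5, 22.2 and 8.15 CPM. Of the *Fas* UMIs of 3′RR-*BCL2*, 50.8% (48.0% to 53.7%) lay in GC-like cells, of those of Igκ-*BCL2* 39.5% (36.0% to 43.0%), and of those of WT 23.4% (19.6% to 27.4%). *Fas* was the only one of the 8 for which this share lay above the share of all UMIs in GC-like cells (13.2%, 7.42% and 2.36%) beyond the counting interval in all 3 libraries. For *Birc3* the share lay below it beyond the interval in all 3, at 7.34%, 3.98% and 0.97%. The same held for *Casp8* (8.16%, 4.89% and 1.64%) and *Cflar* (10.0%, 5.31% and 1.24%).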

How the data were processed

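The authors counted UMIs per gene with Cell Ranger 6.1.1 on mm10 and deposited raw counts, 1 matrix per library. The submitters' notes also name hg38, in a role not given in the sources used here. Limits on cells were 800 to 4500 genes, 20000 UMIs, 8% mitochondrial counts (upper) and 10% ribosomal counts (lower). Cells with 2 or more UMIs of T cell (*Cd3*) or macrophage (C1q) markers were removed. Plasma-marker cells were also sought above the upper limits on genes and UMIs and below the lower limit on ribosomal counts. Cells were normalized with sctransform 0.4.2, integrated over libraries and clustered with Seurat 5.3.0 (resolution 0.2). GC-like cells under 2000 UMIs of genes other than immunoglobulin genes were left out. Doublets were not removed: Scrublet, in scanpy 1.11.5, called 0, 0 and 1 cells. Sums per library and stage were tested with edgeR 4.0.16 (quasi-likelihood, TMM, minimum count 10, Benjamini-Hochberg at 0.05), after a check on simulated data. DESeq2 1.42.0, other limits, stages from markers alone and leaving out each library were alternatives. Members and lists were chosen with earlier results of these data known. All 8 members are named, with up to 10 called pathway genes of largest change in GC-like and plasma-marker cells. *Fasl* and the IFN-activated-like value of *Xaf1* were added after their values were seen. Depth per library stands in the report. Each genotype had 1 library. The methods of the study speak of different batches without assigning libraries to them, so that batch and genotype cannot be told apart. Some genes that the rule would name are not reported here.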

Additional observations from a re-analysis of the deposited data

Results flagged for a closer look

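*Fas* in MZ-like cells relative to resting-like cells differed in direction between libraries. The ratio for Igκ-*BCL2* was 0.62 (0.37 to 0.98), that for WT 1.80 (1.29 to 2.47), and the intervals lie on either side of 1. With 1 library per genotype the difference was not tested. The MZ-like levels themselves were 9.38 CPM in Igκ-*BCL2* and 10.5 CPM in WT, beside resting-like levels of 15.2 and 5.83. Myeloid markers in MZ-like cells summed to 60.2 CPM in Igκ-*BCL2* and 565 CPM in WT, and their part in the difference was not tested. The 3 C1q genes were at 0 in both, but cells with 2 or more UMIs of these genes had been removed. These zeros were thus largely set by the filter.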

How the results depend on the processing

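Of 25 calls among the 8 genes, 14 had the same outcome under every alternative, and of 632 fold changes recomputed 589 kept direction and side of the threshold. *Casp8* in transitional-like cells turned to log2 0.080 with stages from markers alone. Without 1 library, genes called were 3452 to 4355 in non-dividing and 3003 to 4530 in dividing GC-like cells, 1725 to 2187 in plasma-marker, 3768 to 4501 in pre-centroblast-like, 202 to 235 in IFN-activated-like, 1220 to 1970 in MZ-like and 900 to 1828 in transitional-like cells and 28 to 55 in the unnamed cluster, against 5070, 4876, 2642, 5141, 280, 2252, 2130 and 213 with all 3. Stages from markers alone gave 958 in MZ-like and 331 in transitional-like cells, and DESeq2 gave 471 in the unnamed cluster. Genes past 1.5-fold in resting-like cells were 1065 for 3′RR-*BCL2* and 1556 for Igκ-*BCL2* (2565 and 3138 at a minimum of 5 UMIs, 582 and 909 at 50), and in GC-like cells 1783 and 2091 (3193 and 3706 at 5, 1029 and 1183 at 50). The cause of these changes was not tested. *Casp9*, *Apaf1* and the plasma-marker and dividing sums are limited by few UMIs. Stages were compared within libraries. Between genotypes no paired analysis was possible because each has 1 library.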
